A study of Rattus norvegicus with 14 samples.

Results

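The unfolded protein response genes followed here were Hspa5, Hsp90b1, Xbp1, Ern1, Atf6, Pdia4, Dnajb9, Sdf2l1, Herpud1 and Calr, in rat colonocytes after a diet of normal (NPD) or of high protein content (HPD). They were chosen by name, and all 12 probes that carry 1 of these 10 names were used, out of 30367 probes with 26276 gene names on the array. Male Wistar rats, 5 to 6 weeks old on arrival, ate a standard rodent diet for 1 week and then had free access for 15 days to the NPD (14% of energy from protein) or the HPD (55%), which held correspondingly less digestible carbohydrate. Colonocytes, the epithelial cells of the colon, were loosened with EDTA from the colon without its last segment, which was used for other assays. Their RNA was measured on 1-colour Agilent arrays, with 1 array per rat and 7 arrays per diet. No genetic change was made, and each diet group is a mixed epithelial preparation rather than a single cell type.

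Proteins that are secreted or sit in membranes fold in the endoplasmic reticulum (ER), and the colon epithelium makes large amounts of them, among them the mucins of its goblet cells. When unfolded proteins build up there, 3 sensors in the ER membrane respond. IRE1α (gene Ern1) splices the Xbp1 mRNA so that it encodes an active transcription factor, ATF6 (gene Atf6) is cut in the Golgi to release a transcription factor, and PERK (gene Eif2ak3) slows translation and raises ATF4. Together they raise chaperones, enzymes that form disulfide bonds, and the machinery of ER-associated degradation (ERAD), and the chaperone BiP (gene Hspa5) is the most widely used readout of the response.

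The transcription factors of the response bind known promoter elements, so these were searched in RefSeq promoter sequences (250 bases before to 50 bases after each gene start, build GRCr8), to show which of the genes carry the same element. The table held 8 of the 10 genes, all but Ern1 and Atf6. The ER stress response element (ERSE, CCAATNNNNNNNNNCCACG, searched on both strands) was found in 4 of these 8 genes and in 22 of all 33469 promoters, or 0.0657%. The shorter ERSE-II (ATTGGNCCACG) was found in 1 of the 8 genes and in 0.0508% of all promoters, and the unfolded protein response element (UPRE, TGACGTGG) in 0 of the 8 and in 0.595%. The last 5 letters are the same in ERSE and ERSE-II, and the UPRE read on the other strand starts with these letters too. The 250 bases before the start of Hspa5 (GRCr8, chr3:38452766-38453015, plus strand) are given below, with the ERSE in capitals, which begins 43 bases before the start.
Hspa5: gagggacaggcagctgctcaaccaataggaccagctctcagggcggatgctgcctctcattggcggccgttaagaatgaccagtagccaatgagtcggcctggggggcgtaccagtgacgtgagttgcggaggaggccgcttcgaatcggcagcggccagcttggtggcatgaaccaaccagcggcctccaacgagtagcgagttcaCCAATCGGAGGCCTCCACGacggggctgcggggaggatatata

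The elements of the other genes are set out below in the direction of the motif, with its fixed letters in capitals, because they show what the promoters share. Hsp90b1 held a pair of them, 1 on each strand, and Herpud1 held the ERSE-II. Creld2, an ER chaperone, and Derl3, a channel component of ERAD, are not among the 10 genes and are shown because their levels followed Hspa5 most closely among the other genes of the pathway (below).
Xbp1: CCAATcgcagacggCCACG
Hsp90b1: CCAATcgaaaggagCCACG
Hsp90b1: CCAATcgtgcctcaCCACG
Calr: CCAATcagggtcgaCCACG
Herpud1: ATTGGgCCACG
Creld2: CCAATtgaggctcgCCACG
Derl3: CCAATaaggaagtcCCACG
In GRCr8 they lie at chr14:84604558-84604576 for Xbp1, chr7:23012451-23012469 and chr7:23012347-23012365 for Hsp90b1, chr19:40213135-40213153 for Calr and chr19:10614821-10614831 for Herpud1. Those of Creld2 and Derl3 lie at chr7:121789239-121789257 and chr20:12766601-12766619. Counted from the gene start, the element begins 65 bases before it in Xbp1, 176 and 72 in Hsp90b1, 232 in Calr and 124 in Herpud1.
The searched letters were not found in these windows of Dnajb9, Sdf2l1 and Pdia4. A match is a description of the sequence, and binding was not measured. The elements were taken as already known for this response, so their share among these genes is not a test.

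The preparation carried the markers of its label. Of 8 markers of absorptive colonocytes 7, and of 7 epithelial markers 7, were well above background on every array. So were 5 of 7 other immune markers and 6 of 8 markers of stroma and muscle, so the markers do not show epithelium alone. The plasma and B cell markers, of interest because plasma cells express this pathway strongly, were near background: 1 of 8 was well above it on all arrays, and Mzb1 and Tnfrsf17 on none. Their summed level, relative to the array median, was 0.758 to 15.6 on the NPD arrays and 0.845 to 10.71 on the HPD arrays. Between 18862 and 21002 probes per array were well above background, and the median background-subtracted signal was 114 to 179 on the NPD arrays and 89.7 to 129 on the HPD arrays. The arrays lay on 2 slides, slide 1 with 4 NPD and 3 HPD arrays and slide 2 with 3 and 4, and slide changed 40.1% of all probes at a q-value below 0.1. Each level below is the log2 of the background-subtracted signal minus the median of its array, so it can be compared between arrays but not between genes.

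No gene of the set was called differentially expressed between the diets. Of the 12 probes, 0 passed a q-value below 0.1, where the same limma fit called 17 of 30367 probes (0.056%), all of them higher in HPD. The paper reported far more genes at this threshold from its own limma fit, with more of them lower than higher in HPD. Why the counts differ was not tested. At an unadjusted p below 0.05 the fit used here again picked 0 of the 12, against 11.4% of all probes. The diets overlapped for all 12, while they did not for 0.273% of all probes. The lowest adjusted p of any of the 12 probes was 0.482, that of Atf6. All 12 probes were well above background on all 14 arrays and none was saturated. That of Ern1 had a background-subtracted signal of 21.0 to 42.5, below the median of its array each time. In RNA from a mixed preparation, fewer cells of a type and less RNA per cell cannot be told apart. By the brightest probe of each gene, 7 of 10 had a higher mean in HPD and 3 a lower one, where 35.8% of all probes and 42.2% of those well above background on all arrays were lower. Over the 10 genes this gave a median log2 fold change of 0.15. The median was 0.11 over all probes and 0.05 over those well above background on all arrays. With slide as a block the medians over the 10 genes and over all probes were 0.09 and 0.07. The median over the 10 genes turned to -0.0065 in the authors' normalized table, -0.033 in that table with slide as a block and -0.024 with normexp background correction and slide as a block. It was 0.073 without NPD replicate 1 and 0.239 without HPD replicate 1. Of the 10 genes, Hspa5, Atf6 and Hsp90b1 kept the sign of their difference under all 30 settings of the fit, and the other 7 changed sign under at least 1.

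**Figure D1:**
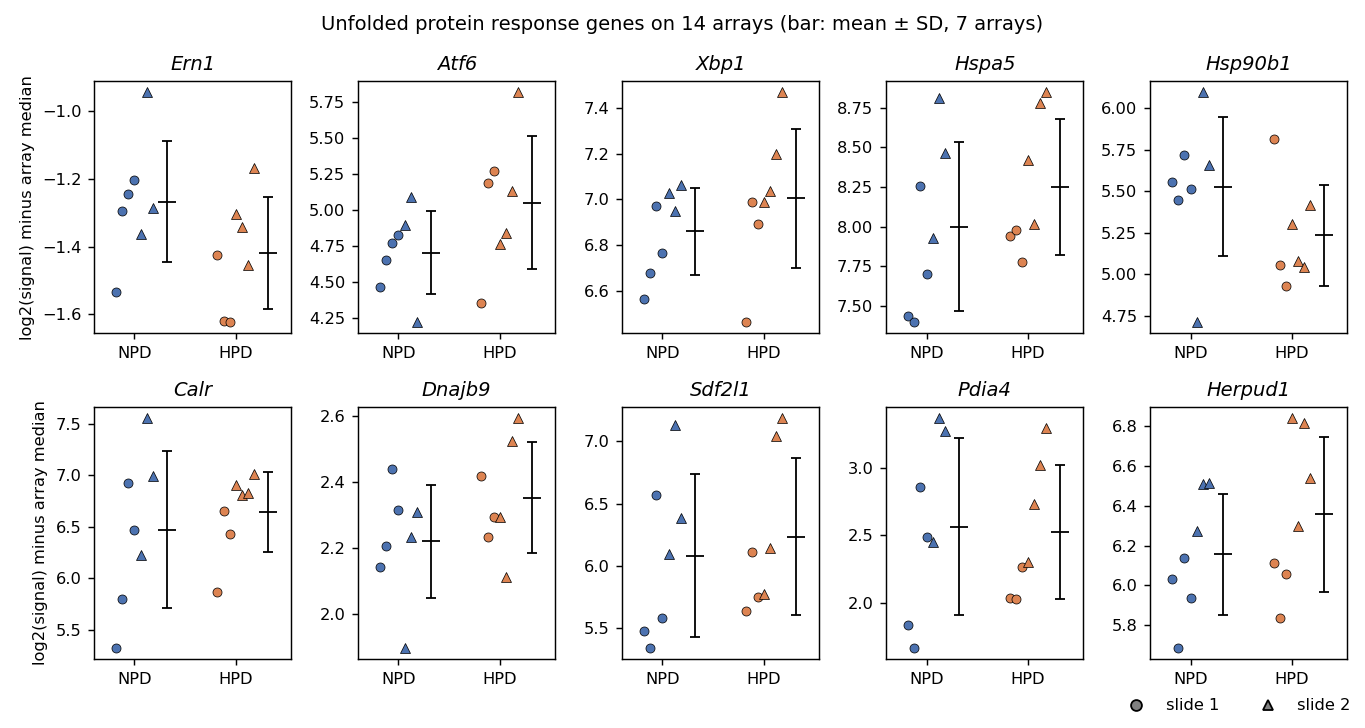
Levels of the 10 genes on each array (log2 of the signal minus the array median, brightest probe), by diet on the horizontal axis, with circles for slide 1, triangles for slide 2 and bars for mean ± SD of 7 arrays. The diets overlap for every gene, and the triangles lie mostly above the circles for Hspa5, Pdia4, Sdf2l1, Calr, Xbp1 and Herpud1.

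Among the sensors, Atf6 had a higher mean in HPD by both of its probes. Its difference was the largest of the set in the fit described here, while with centring on the mean (0.27 for Atf6 and -0.37 for Hsp90b1), quantile normalization, cyclic loess, pixel means or medians, normexp and the authors' table that of Hsp90b1 was larger in size. Its level on the NPD arrays ran from 4.23 through a median of 4.77 to 5.09, and on the HPD arrays from 4.35 through 5.13 to 5.81. The HPD arrays were thus spread over a wider range, with 6 of 7 above the NPD mean but the lowest of them among the lowest NPD arrays. The log2 fold change was 0.35 (SE 0.20, 95% interval -0.08 to 0.77, limma adjusted p = 0.482, exact two-sided permutation p = 0.115), and it was 0.26 within slide 1 and 0.40 within slide 2. A dimmer probe of Atf6 gave a log2 fold change of 0.26 (SE 0.16, limma adjusted p = 0.505), again with 6 of 7 HPD arrays above the NPD mean. The probes of Atf6 lie at chr13:86543773-86543832 and, for the dimmer, chr13:86545071-86545130 (build rn4, minus strand), and across the 14 arrays their deviations correlated with r = 0.452.

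Ern1, the sensor and nuclease of the best conserved branch, had the smallest spread of the set between rats of the same diet and slide. Its level ran from -1.53 through a median of -1.29 to -0.95 on the NPD arrays and from -1.62 through -1.43 to -1.17 on the HPD arrays. HPD arrays held the lowest levels and 6 of 7 lay below the NPD mean, yet the ranges overlapped over much of their length. The log2 fold change was -0.15 (SE 0.11, 95% interval -0.39 to 0.09, limma adjusted p = 0.520), and the exact permutation p was 0.125 over all splits of the arrays and 0.0498 when only arrays of 1 slide were exchanged. It was -0.24 within slide 1 and -0.12 within slide 2, and its sign turned with pixel means or medians and with normexp background correction. Its probe lies at chr10:95794565-95794624 (rn4, minus strand). Ern2, the related sensor gene on the wider list, had means of 6.44 on the NPD arrays and 6.59 on the HPD arrays. The log2 fold change of Ern2 was 0.14 (SE 0.11, limma adjusted p = 0.537), and its probe was well above background on all arrays.

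Xbp1, the transcription factor that Ern1 activates by splicing, ran from 6.56 through a median of 6.95 to 7.06 on the NPD arrays and from 6.46 through 6.99 to 7.47 on the HPD arrays. Both the lowest and the highest arrays were thus HPD arrays, although 6 of 7 lay above the NPD mean. The log2 fold change was 0.14 (SE 0.14, 95% interval -0.16 to 0.45, limma adjusted p = 0.626), 0.04 within slide 1 and 0.16 within slide 2. The array has a single probe for Xbp1 (chr14:86156913-86156972, rn4, plus strand), so spliced and unspliced forms were not told apart, and cleavage of ATF6 or activity of IRE1α was not measured.

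Among the chaperones, Hspa5 was slightly higher on the HPD arrays, by less than the spread between rats. Its level ran from 7.40 through a median of 7.93 to 8.81 on the NPD arrays and from 7.78 through 8.02 to 8.85 on the HPD arrays. Both diets reached nearly the same highest level, and 4 of 7 HPD arrays exceeded the NPD mean. The log2 fold change was 0.25 (SE 0.25, 95% interval -0.27 to 0.78, limma adjusted p = 0.614, exact two-sided permutation p = 0.335), which is a fold of 1.19. It was 0.20 within slide 1, 0.12 within slide 2 and 0.16 with slide as a block. Its probe lies at chr3:13787739-13787798 (rn4, plus strand).

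Hsp90b1, the ER form of the HSP90 chaperone, went the other way. Its level ran from 4.71 through a median of 5.55 to 6.10 on the NPD arrays and from 4.93 through 5.08 to 5.81 on the HPD arrays. The lowest array was an NPD array, but 6 of 7 HPD arrays lay below the NPD mean. The log2 fold change was -0.29 (SE 0.19, 95% interval -0.70 to 0.12, limma adjusted p = 0.515, exact two-sided permutation p = 0.157), and it was -0.29 within slide 1 and -0.28 within slide 2. Hsp90b1 was lower in HPD under all 30 settings of the fit, from -0.43 to -0.20, without being called in any. Its probe lies at chr7:23334474-23334623 (rn4, minus strand), a span of 150 bases.

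The lectin chaperone Calr and the HSP70 co-chaperone Dnajb9 also overlapped between the diets. Calr ran from 5.32 through a median of 6.46 to 7.55 on the NPD arrays and from 5.87 through 6.81 to 7.01 on the HPD arrays. The NPD arrays thus enclosed the HPD arrays, and the log2 fold change of 0.17 had an SE of 0.30 (95% interval -0.47 to 0.81, limma adjusted p = 0.780). It was 0.19 within slide 1 and -0.04 within slide 2. Dnajb9 ran from 1.90 through 2.23 to 2.44 on the NPD arrays and from 2.11 through 2.29 to 2.59 on the HPD arrays, with 6 of 7 HPD arrays above the NPD mean. Its log2 fold change was 0.13 (SE 0.11, 95% interval -0.11 to 0.37, limma adjusted p = 0.569), 0.04 within slide 1 and 0.23 within slide 2. The probes lie at chr19:24967507-24967566 (plus strand) for Calr and chr6:63583604-63583663 (minus strand) for Dnajb9, both in rn4.

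Sdf2l1, a partner of BiP and its co-chaperones, had the widest spread of the set between rats of the same diet and slide, while on the NPD arrays alone the SD of Calr was larger (0.761 against 0.657). By its brighter probe (chr11:85880276-85880335, rn4, plus strand) it ran from 5.34 through a median of 6.09 to 7.13 on the NPD arrays and from 5.64 through 6.11 to 7.18 on the HPD arrays. The medians nearly coincided, and the log2 fold change of 0.15 (SE 0.32, 95% interval -0.52 to 0.83, limma adjusted p = 0.816) was small against a range of well over 1 log2 unit within each diet. The dimmer probe (chr11:85879929-85879988) gave 0.02 (SE 0.27, limma adjusted p = 0.977), and the deviations of both probes correlated with r = 0.977 across the arrays. The spread of Sdf2l1 between rats was thus read alike by separate probes.

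Pdia4, a protein disulfide isomerase of the ER, ran from 1.67 through a median of 2.49 to 3.37 on the NPD arrays and from 2.03 through 2.30 to 3.30 on the HPD arrays. Its diet difference was close to 0, with a log2 fold change of -0.04 (SE 0.29, 95% interval -0.66 to 0.58, limma adjusted p = 0.955), and it was -0.10 within slide 1 and -0.19 within slide 2. Herpud1, which helps to assemble the ERAD machinery, ran from 5.69 through 6.14 to 6.51 on the NPD arrays and from 5.83 through 6.30 to 6.84 on the HPD arrays. Although the highest levels of Herpud1 were on HPD arrays, only 4 of 7 exceeded the NPD mean, and the log2 fold change was 0.20 (SE 0.18, 95% interval -0.19 to 0.59, limma adjusted p = 0.594). It was 0.05 within slide 1 and 0.19 within slide 2. The probes lie at chr4:75929978-75931486 (minus strand, a span of 1509 bases) for Pdia4 and chr19:11036709-11036768 (minus strand) for Herpud1, both in rn4.

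**Figure D2:**
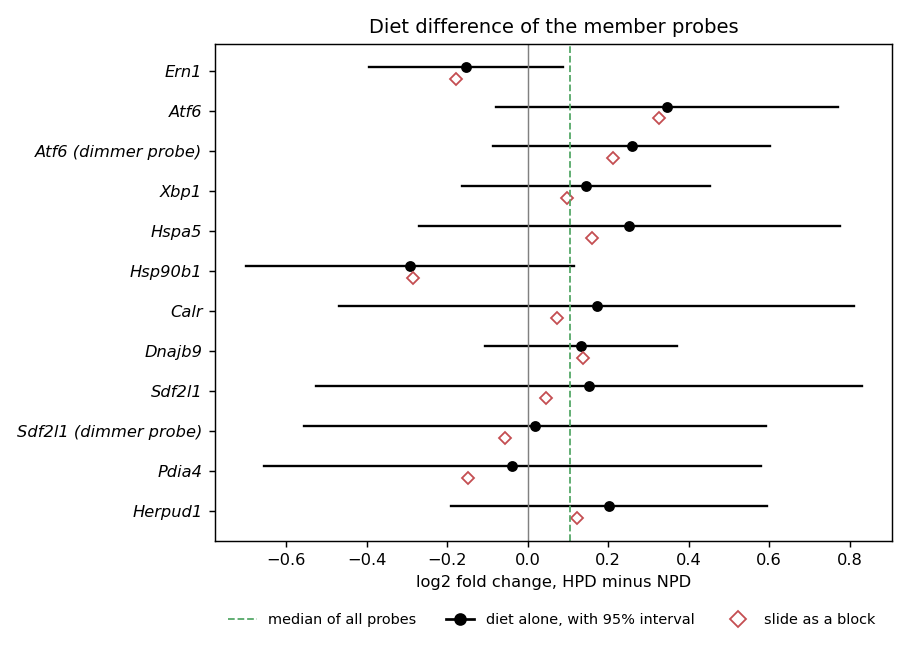
Log2 fold change of each probe (HPD minus NPD) from the fit with diet alone (black, with its 95% interval) and with slide as a block (open diamonds), with 0 and the median of all probes (dashed, 0.11) marked. All 12 intervals include 0, and the changes farthest from 0 in the fit with diet alone are 0.35 for Atf6 and -0.29 for Hsp90b1.

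These intervals also bound what could have been missed. The highest upper limit was 0.83 for Sdf2l1 and the lowest lower limit -0.70 for Hsp90b1, so a change of 1 on the log2 scale lay outside the interval of every probe. A rise of 0.3 lay inside the interval of 10 of the 12 probes and a fall of 0.3 inside that of 6.

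Slide differences, unlike diet differences, passed the threshold for several of the genes. In the fit with both terms, 6 of the 10 genes differed between the slides at a limma adjusted p below 0.1, against 40.1% of all probes, and 8 of 10 had a higher level on slide 2. Pdia4 differed most, with means of 2.17 on slide 1 and 2.92 on slide 2 (adjusted log2 difference 0.77, limma adjusted p = 0.0161). Hspa5 had means of 7.78 and 8.47 (0.66, limma adjusted p = 0.0137), while Hsp90b1 (-0.06, limma adjusted p = 0.827) and Dnajb9 (-0.03, limma adjusted p = 0.841) did not pass. The labels do not say which steps the arrays of a slide shared before hybridisation.

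Rats of the same diet and slide differed in these genes, and several genes differed together. For this, each array's level was set against the mean of the arrays of its diet and slide. The SD of these deviations was 0.552 for Sdf2l1, which 4.76% of the 17455 probes well above background on all arrays exceeded. The median SD of those 17455 probes was 0.223. Calr had 0.524, Pdia4 0.451, Atf6 0.410, Hsp90b1 0.398 and Hspa5 0.365. The SD was 0.198 for Xbp1, 0.197 for Herpud1, 0.176 for Dnajb9 and 0.152 for Ern1, all below that median. The genes of the set thus lay on both sides of the median of the probes well above background.

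With the means of diet and slide removed, Dnajb9, Sdf2l1, Pdia4 and Calr followed Hspa5 from rat to rat. Over the 14 arrays the deviations of Dnajb9 correlated with those of Hspa5 with r = 0.87 and rho = 0.81 (permutation test within diet and slide, p = 0.00246, and 0.0155 adjusted over the 9 correlations computed). For Sdf2l1 r was 0.87 and rho 0.87 (permutation p = 0.00345, adjusted 0.0155), for Pdia4 0.81 and 0.83 (0.00853, adjusted 0.0192), and for Calr 0.74 and 0.73 (0.00683, adjusted 0.0192). The same genes held r between 0.73 and 0.84 without the arrays farthest from the median of Hspa5 (NPD replicate 3 and HPD replicate 5), and r was 0.75 or more for each of them within either slide. Hsp90b1 correlated with r = 0.60 (permutation p = 0.0174, adjusted 0.0312) and rho = 0.55 (adjusted 0.0818), but with 0.34 within slide 1 and 0.74 within slide 2. The remaining genes did not pass with diet and slide removed: Herpud1 had r = 0.59 (adjusted permutation p = 0.0917), Ern1 0.54 (0.126), Xbp1 0.48 (0.0917) and Atf6 0.34 (0.289).

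**Figure D3:**
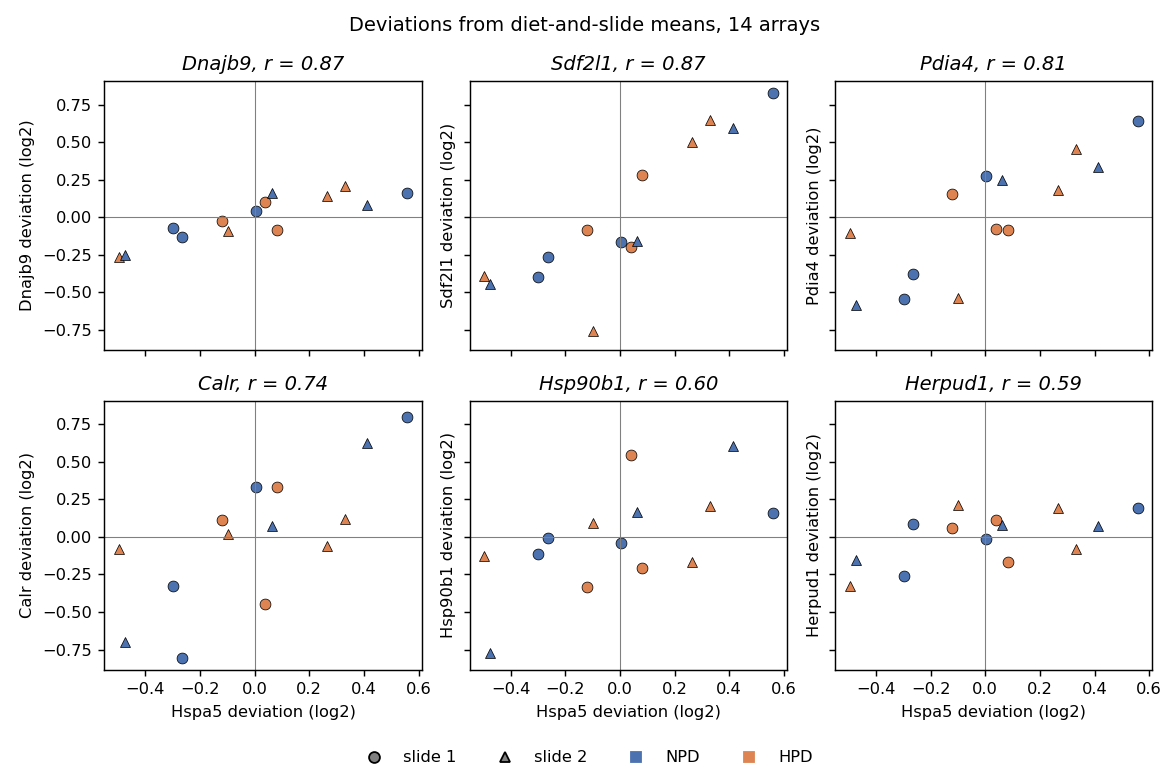
Deviation of 6 genes (vertical axis, log2) against that of Hspa5 (horizontal axis, log2) on the 14 arrays, each from the mean of its diet and slide, with colours for diet and shapes for slide. Dnajb9, Sdf2l1, Pdia4 and Calr rise with Hspa5 over arrays of both diets (r of 0.87, 0.87, 0.81 and 0.74), and Hsp90b1 and Herpud1 less closely (0.60 and 0.59).

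These values have a background, since all probes of an array share its RNA, labelling and scan. Of the 17455 probes well above background on all arrays, the median r with Hspa5 was 0.181, and 1.02% reached 0.8, which 3 of the other 9 genes did. The median of those 9 genes was 0.602 and that of the 54 further pathway genes 0.362. The count of genes with an adjusted permutation p below 0.05 was 5 of 9, but 1 of 9, Dnajb9, after cyclic loess between arrays, where r with Hspa5 was 0.83 for Dnajb9, 0.71 for Sdf2l1, 0.67 for Pdia4 and 0.68 for Calr. With only the diet means removed, which leaves the slide differences in, it was 6 of 9. Sdf2l1 (r = 0.92), Pdia4 (0.91) and Calr (0.84) passed there too, as did Herpud1 (r = 0.82, adjusted permutation p = 0.00189), Xbp1 (0.73, 0.00277) and Ern1 (0.70, 0.0125). Dnajb9 (r = 0.48, adjusted permutation p = 0.121) and Hsp90b1 (0.34, 0.275) did not, so 0 of the 9 genes passed under all 3 settings. The 10 genes were named together for this description with earlier results of these data known, so the adjusted values do not stand as independent evidence.

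No summed marker level or array measure had a correlation with Hspa5 that passed, in 5 correlations computed after the data were seen. The summed absorptive markers had r = 0.53 with Hspa5 (permutation p = 0.128, adjusted 0.640, rho = 0.49 with adjusted p = 0.697), and r was 0.43 without NPD replicate 3 and HPD replicate 5. For the goblet markers r was 0.10 and for the plasma and B cell markers -0.01. For the other immune markers it was 0.19, and for the median signal of the array -0.14. The lowest adjusted permutation p of these was 0.640. Their part in the shared movement of the chaperones was otherwise not tested.

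Over all pairs of the 10 genes, r ran from -0.25 to 0.87 with a median of 0.484, was 0.5 or more in 22 of 45 pairs and below 0 in 4. Hspa5, Dnajb9, Sdf2l1, Pdia4 and Calr had positive values throughout among themselves. Atf6 went with Xbp1 (r = 0.74) and Ern1 with Hsp90b1 (0.72), while Xbp1 with Hsp90b1 (-0.25) and Atf6 with Herpud1 (-0.20) had the lowest values. The sensor genes Ern1 and Atf6 had r = 0.27 with each other.

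**Figure D4:**
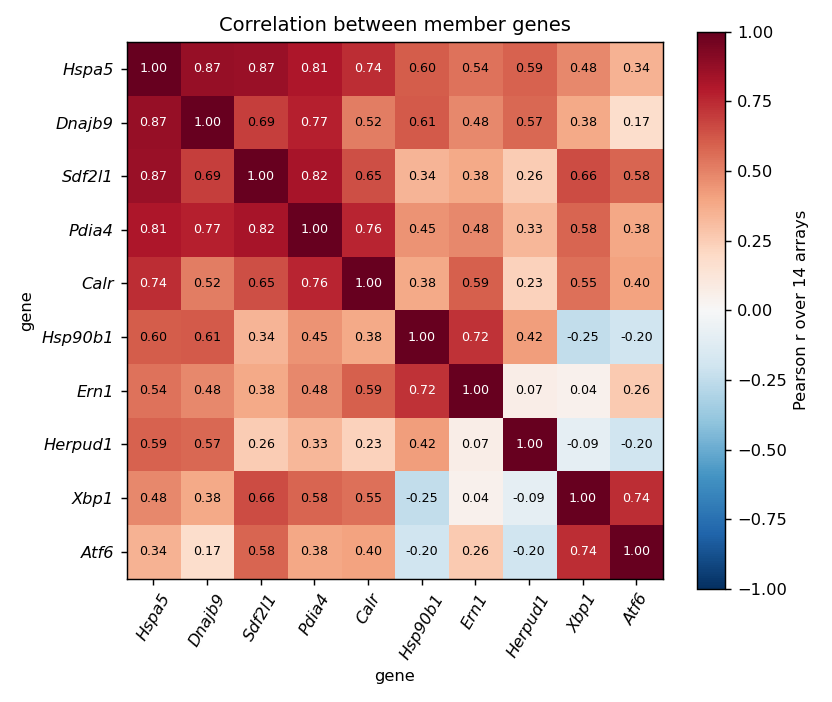
Pearson r between the 10 genes (both axes) over 14 arrays, after removing the mean of each diet and slide; red is positive and blue negative. Hspa5, Dnajb9, Sdf2l1, Pdia4 and Calr form a block with values from 0.52 to 0.87, and the lowest value is -0.25 between Xbp1 and Hsp90b1.

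Apart from the 10 genes, the named probes most like Hspa5 over the 14 arrays were Pppde1 (r = 0.973, listed as Desi2 in RefSeq), Dynll1 (0.941), Zdhhc2 (0.938), a transcript without a gene symbol (0.933) and Derl3 (0.931). Among the pathway genes, Derl3 was followed by Creld2 (0.905) and Hyou1 (0.868), an ER chaperone of the HSP110 family. Of these, Derl3 and Creld2 hold the ERSE shown above, and Hyou1 holds the ERSE-II and the UPRE. The ERSE was also found for Canx, Dnajc3 and Ero1lb (Ero1b in RefSeq), whose r with Hspa5 was 0.587, 0.473 and -0.104, and so for 5 of the 50 pathway genes with an entry. Among the 10 genes, the highest r was that of Dnajb9 (0.87), Sdf2l1 (0.87) and Pdia4 (0.81), whose windows held none of the searched elements. Those with an ERSE or ERSE-II had lower values: Calr 0.74, Hsp90b1 0.60, Herpud1 0.59 and Xbp1 0.48. The lowest values of the pathway genes were those of Chac1 (-0.638) and Sels (-0.540). Creld2 and Hyou1 nevertheless differed in the sign of their diet difference, with log2 fold changes of -0.39 (SE 0.20, limma adjusted p = 0.452) and 0.16 (SE 0.23, limma adjusted p = 0.723).

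The rest of the pathway was described from a list of 59 further genes, of which 54 were on the array. As for the 10 genes, 0 were called at a q-value below 0.1. By sign, 29 were higher and 25 lower in HPD, with a median log2 fold change of 0.04 against 0.11 for all probes. At an unadjusted p below 0.05 the fit picked 9, of which 2 were higher and 7 lower, where 5.86% and 5.55% of all probes lay on either side. Among probes well above background on all arrays the share on the lower side was 8.13%. The exact permutation p was below 0.05 for 11 of the 54 genes, and its share among all probes was not computed. Genes named below were picked partly by this p, so an exact p printed for them is no separate support.

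The genes listed as PERK branch outputs lay mostly above 0 and the folding enzymes mostly below. PERK activity was not measured, so the name of the list does not show which input moved these genes. Chac1, a glutathione-degrading enzyme downstream of ATF4, ran from 1.58 through a median of 1.81 to 2.08 on the NPD arrays and from 1.92 through 2.14 to 2.32 on the HPD arrays. All 7 HPD arrays exceeded the NPD mean, with a log2 fold change of 0.33 (SE 0.11, limma adjusted p = 0.417, exact two-sided permutation p = 0.00524). Of the 6 PERK branch genes 5 were higher and 1 lower, with a median of 0.26. Of all probes 35.8% were lower, and of those well above background on all arrays 42.2%. Trib3, an inhibitor of signalling that ATF4 raises, had 0.36 (SE 0.39) and ranges that overlapped widely. The PERK gene itself, Eif2ak3, had 0.26 (SE 0.13, limma adjusted p = 0.444, exact p = 0.0379).

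Of 9 further chaperones 6 were lower in HPD, with a median of -0.21. Manf, a secreted protein retained in the ER, had -0.41 (SE 0.15, limma adjusted p = 0.417, exact p = 0.0210), and Dnajc3, a co-chaperone that also inhibits PERK, -0.29 (SE 0.12, limma adjusted p = 0.421, exact p = 0.0216). Hspa13 (-0.21) and Dnajb11 (-0.25), the latter a co-chaperone of BiP, had 6 of 7 HPD arrays below the NPD mean. These lower chaperones had the sign of Hsp90b1, while Hyou1 (0.16), Dnajc10 (0.27) and Sil1 (0.12) of the same list had that of Hspa5.

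Disulfide formation gave the lowest values of the list, with 6 of 10 genes lower in HPD and a median of -0.20. Pdia5 (0.13), Ero1l (0.05), Erp44 (0.14) and Ero1lb had a higher mean in HPD. Agr2, a disulfide isomerase of goblet cells needed for mucin folding, ran from 9.21 through a median of 9.64 to 9.96 on the NPD arrays and from 8.23 through 9.16 to 9.93 on the HPD arrays. The HPD arrays reached lower than any NPD array, and 6 of 7 lay below the NPD mean (log2 fold change -0.63, SE 0.24, limma adjusted p = 0.417, exact p = 0.0303). The goblet markers beside it had a summed level with a median of 5597 on the NPD arrays (4567 to 6905) and 4313 on the HPD arrays (3773 to 10084). The 7 markers went both ways, 3 higher and 4 lower, from 1.82 for Spink4 (SE 0.42, limma adjusted p = 0.417, 7 of 7 HPD arrays above the NPD mean) and 0.01 for Muc2 to -0.56 for Clca1 (SE 0.25, limma adjusted p = 0.429). Of them 0 were called, and their part in the level of Agr2 was not tested. Pdia3, the isomerase that works with calreticulin and calnexin, had -0.56 (SE 0.27, limma adjusted p = 0.440), and Pdia6 and Prdx4 had -0.30 (SE 0.14) and -0.30 (SE 0.13), with 7 of 7 HPD arrays below the NPD mean for both. P4hb and Erp29, further members of the disulfide isomerase family, had -0.22 and -0.19, and Ero1lb, an oxidase that was near background and well above it on 2 NPD and 3 HPD arrays, had 0.30 (SE 0.22).

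Degradation was split, with 8 of 15 genes higher and a median of 0.00. Edem3, a mannose-trimming factor, had 0.51 (SE 0.23, limma adjusted p = 0.428) and its relative Edem2 -0.26 (SE 0.15). Sels, the selenoprotein of the retrotranslocation complex, had -0.51 (SE 0.21, limma adjusted p = 0.417), and Sel1l, the adaptor of the ubiquitin ligase, -0.19 (SE 0.10, exact p = 0.0117). The lectin Os9 had -0.24, the ubiquitin-conjugating enzyme Ube2j1 -0.25 and the extracting ATPase Vcp -0.17, with 6, 6 and 7 of 7 HPD arrays below the NPD mean. Traf2, an adaptor that binds activated IRE1α, had -0.31 (SE 0.12, limma adjusted p = 0.417, exact p = 0.0181).

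**Figure D5:**
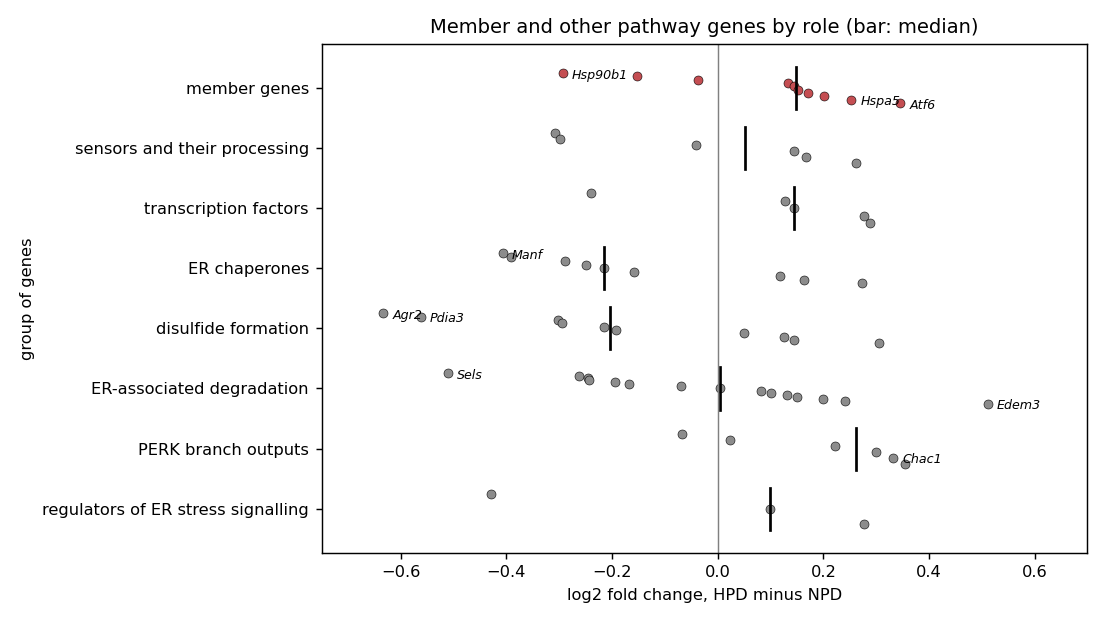
Log2 fold change (HPD minus NPD, horizontal axis) of the 10 genes (red) and of the 54 further pathway genes (grey) by role, 1 point per gene with a bar for the median. Chaperones and disulfide formation have medians of -0.21 and -0.20, PERK branch outputs 0.26 and the 10 genes 0.15.

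Chaperone, disulfide and ERAD genes of the wider list were called under some settings, in which far more of the array was called too. With normexp background correction 15 of the 54 genes were called, all lower in HPD, where 6.15% of all probes were called lower. With normexp and slide as a block 18 were called lower and 2, Edem3 and Ero1lb, higher, against 10.6% and 17.3% of all probes. In the authors' normalized table with slide as a block 17 were called lower and Edem3 higher, against 6.50% and 3.98% of genes. Agr2, Manf, Dnajc3, Dnajb11, Creld2, Hspa13, Pdia6, P4hb, Erp29, Prdx4, Sels, Ube2j1, Vcp and Traf2 were called lower in each of these 3. Of the 10 genes described here, 0 were called in any of the 30 settings, those 3 included.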

How the data were processed

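Colonocyte RNA of 14 rats was measured on 14 arrays, 1 per rat, and each array's diet was taken from its title in the labels. The authors deposited the scanner output of Agilent Feature Extraction 10.7.3.1 (submitters' processing notes), with each spot's intensity, linear, raw and background-subtracted, and a table of normalized log2 values by gene name (an alternative here). The 2 rats left out by the authors as outliers were not analysed here, and 0 columns belonged to other samples. The authors' signal column and centring statistic are not given in the sources used here. The number of arrays limits the precision.

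Here control and outlier-flagged spots were dropped, and background-subtracted signals were log2-transformed, averaged over spots of a probe and centred on the array median, without a filter. The diet term, alone in the model, was fitted by lmFit and eBayes of limma 3.58.1 (R 4.3.3) over 30367 probes, with Benjamini-Hochberg q-values and a threshold of 0.1. Single values were tested by exact permutation over 3432 splits (smallest p 0.00058) or 1225 within slides. Correlations were tested with 100000 permutations within diet and slide. On simulated data with known changes, the fit called 11.9% of changes of 0.5 and 73.1% of changes of 1 on the log2 scale. Tables were read with data.table (1.17.8), and figures drawn with matplotlib 3.10.9 in Python 3.11.15. The members and gene lists were chosen with earlier results of these data known. Named beside the members were pathway genes called under any alternative or with an exact p below 0.05, the 3 highest and 3 lowest of the list, and the 5 names most like Hspa5. Ern2 was named as a relative of Ern1. Gene names come from the array design. Other markers fixed were those of enteroendocrine, immune, stromal and muscle, and stem and cycling cells, of which 0 were called.

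Alternatives were mean or median pixels, centring on the mean or the 75th percentile, quantile normalization, cyclic loess, normexp (offset 50), only probes well above background, a block for slide or for replicate number, trended eBayes, a q-value below 0.05, the deposited table, the mean of a gene's probes, and leaving out each array.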

Additional observations from a re-analysis of the deposited data

Results flagged for a closer look

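Of 70 groups of 7 arrays tested for a single array apart from the rest, 2 had one, where chance gives about 1 in 20. Neither was among the 24 groups of the 10 genes. Prdx4 on the array of HPD replicate 4 had a log2 level of 3.201, while the other HPD arrays lay between 3.756 and 3.899. Without that array the log2 fold change of Prdx4 was -0.21 (limma adjusted p = 0.55). Vcp on the array of NPD replicate 1 had 5.544, while the other NPD arrays lay between 6.008 and 6.209, and without it the log2 fold change of Vcp was -0.25 (limma adjusted p = 0.57).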

How the results depend on the processing

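Of the 12 probes, 0 were called under any setting, and Hspa5, Atf6 and Hsp90b1 kept their sign under all 30. The pathway count of 0 became 15 with normexp, 20 with normexp and slide as a block, and 18 in the authors' table with a slide block (the cause was not tested), and the count of members correlated with Hspa5 went from 5 to 1 with cyclic loess. With only diet means removed that count was 6, with Dnajb9 and Hsp90b1 lost and Herpud1, Xbp1 and Ern1 gained. The following log2 fold changes turned sign, none of them called. Ern1 became 0.0167 with pixel means and 0.0192 with pixel medians, 0.0148 with normexp and 0.00154 with normexp and slide. The dimmer Sdf2l1 probe became -0.0563 with centring on the mean, -0.0323 with quantile normalization, -0.0130 with cyclic loess, -0.0755 with pixel means, -0.0723 with pixel medians, -0.0554 with a slide block, -0.115 with normexp and -0.184 with normexp and slide. With normexp, Sdf2l1 was -0.00556, and with normexp and slide Sdf2l1 was -0.0877, Xbp1 -0.0367, Calr -0.0628 and Herpud1 -0.0122. In the authors' table Xbp1 was -0.00960, Dnajb9 -0.00347 and Sdf2l1 -0.0392, and with a slide block Xbp1 was -0.0316, Calr -0.0385 and Sdf2l1 -0.100. Leaving out 1 array gave -0.0193 to 0.352 for Calr, -0.187 to 0.0961 for Pdia4, -0.00588 to 0.327 for Sdf2l1 and -0.120 to 0.167 for its dimmer probe, with 0 calls each time.

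Whether replicate numbers pair the samples could not be decided. With diet means removed, deviations of same-numbered arrays correlated with r from -0.152 to 0.656. For number 1 (0.656) each array was the other's closest match. All same-numbered arrays but those of number 4 (-0.152) shared a slide, so number and slide are not separated here. With the replicate number as a block 0 of the 12 probes and 0 pathway genes were called, alone or with slide. The median over the 10 genes was 0.1484 with the replicate block and 0.1292 with slide added. The 12 probes were well above background on all arrays, but Ern1, with a signal below the array median, turned sign with pixel and background treatment. The number of arrays leaves intervals of 0.48 to 1.35 log2 units, and scaling shifts the median of all probes from 0.11 to 0.00067 with cyclic loess.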
